A study of Mus musculus with 56 samples.

Results

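The 4 arrays described here carried cDNA amplified from 10 ng of total RNA by global polyadenylated PCR amplification (GA), with OV cDNA in one dye channel and 3T3 cDNA in the other. OV is a mouse line of ovarian surface epithelium, and 3T3 is a line of mouse fibroblasts. The 4 arrays were chosen as those whose titles name GA and different samples at 10 ng, hybridizations 1 to 4, out of 56 arrays of a study that set several RNA amplification methods against unamplified cDNA on the same kind of oligonucleotide array. Each array gave a log2 ratio of Cy5 to Cy3 for every probe, which was turned so that a positive value is a higher level in OV. OV was in Cy5 on hybridizations 1 and 3 and in Cy3 on hybridizations 2 and 4. Of 21766 probes other than controls, the 6563 with a value on all 4 arrays were tested. Neither line had been treated, and no genotype, passage or culture number is given for them. No label ties the arrays to separate cultures, so p-values measure only the spread between these arrays, which may be technical. The reference was 4 arrays of unamplified cDNA reverse transcribed from 100 ug of total RNA of the same lines. Ratios of 2 dyes give no level per cell, and more of a transcript cannot be told apart from more cells that hold it.

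The labels do not describe all 4 arrays alike. Hybridization 2 is titled and sourced as OV in Cy3 against 3T3 in Cy5, but its description speaks of 2 replicas, and the description of hybridization 1 gives the input as 10 ug where the other labels give 10 ng. Counts of calls were therefore also made without hybridization 2 and on hybridizations 3 and 4 alone.

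In GA, messenger RNA is copied from an oligo(dT) primer, the short first strand is tailed with adenosines by terminal transferase, and a single primer that ends in thymidines then amplifies every molecule from both ends by PCR. Because the products are short, they mostly hold the 3' ends of messages. The ovarian surface epithelium is a single layer of mesothelium-derived cells that makes keratins and the transcription factor WT1 alongside mesenchymal proteins, and 3T3 fibroblasts are an immortal line that divides fast, deposits collagen and carries mesenchymal homeobox factors.

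Hybridizations 1 to 4 held values for 11366, 11254, 16672 and 9442 probes, against 14198 to 18274 on the unamplified arrays, where 12866 probes had a value on all 4 and 1963 (15.3%) were called, 8.18% higher and 7.07% lower. The 4 arrays fell into pairs. Across the 6563 probes the turned ratios of hybridizations 1 and 2 correlated at r = 0.77 and those of hybridizations 3 and 4 at r = 0.87, while the 4 correlations across the pairs ran from 0.49 to 0.58 (a description over probes that share arrays). The unamplified arrays correlated at 0.78 to 0.90 throughout, on their own 12866 probes. Each of these pairs holds both dye orientations, so they are called dye-swap pairs here. That each pair came from 1 amplification of each line was taken from the numbering and is not stated. Results are therefore also given with the pair as a random block.

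Of the 6563 probes, 529 were called by an LOD above 0, which is 8.06% of those tested: 148 were higher and 381 lower in OV. The LOD is the log odds, from limma, that a probe differs between the lines. All 529 had 1 sign on all 4 arrays, as did 49.2% of all probes tested. With the dye-swap pairs as a random block 356 were called (5.42%), 96 higher (1.46%) and 260 lower (3.96%), and 355 of these were among the 529. Without hybridization 1, 2, 3 or 4 the counts were 288, 329, 252 and 367, and a dye term gave 302. The balance of directions moved with the rule: an adjusted p under 0.05 in limma called 1796 probes (27.4%), 702 of them higher, and hybridizations 3 and 4 alone called 594 higher and 606 lower. The excess of lower calls was not matched by an excess of large ratios, since 161 probes had a mean above 1 and 161 a mean below -1. Among probes with a mean between 1 and 1.5 in size, those higher in OV had a median SD of 0.59 over the 4 arrays and 55 of 115 were called, while those lower in OV had a median SD of 0.27 and 119 of 135 were called.

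The 10 highest called genes were, in order, Tmem176b, Mgp, Adam5, Gas6, Aldh1a1, Mgst1, Saa3, Crip1, Clu and Smim1. Mgp, which encodes the matrix Gla protein that blocks calcification, read 2.25, 2.38, 2.80 and 3.22 on hybridizations 1 to 4. All 4 arrays stood far above 0, the second pair above the first, with a mean of 2.66 ± 0.44 (SD, n = 4, limma adjusted p = 0.00123). Gas6, the ligand of the TAM receptor kinases, read 2.06, 2.26, 2.16 and 3.16 and averaged 2.41 ± 0.51. Hybridization 4 was the highest of the 4 for this gene.

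Aldh1a1, which makes retinoic acid from retinaldehyde, read 1.95, 1.45, 2.70 and 3.15 and averaged 2.31 ± 0.76. The first pair lay below the second, and the difference between the pairs passed its own test (adjusted p = 0.0147). Mgst1, a microsomal glutathione transferase, was more even at 2.16, 2.37, 1.90 and 2.52, a mean of 2.24 ± 0.27. Adam5, of the metalloprotease-disintegrin family, had the smallest spread of the 10 highest genes, at 2.57 ± 0.11. The acute phase gene Saa3 averaged 2.10 ± 0.77, with hybridization 4 at 3.23 against 1.59 to 1.96 on the other arrays, and its other probe gave 2.11. Clu, which encodes the secreted chaperone clusterin, averaged 2.05 ± 0.66, while its other probe averaged 0.95 and was not called. Tmem176b, at 2.78 ± 0.60, Crip1, at 2.05 ± 0.77, and Smim1, at 1.99 ± 0.86, complete the 10 highest. Leaving out hybridization 3 ended the calls of Crip1 and Smim1, whose means without single arrays ran from 1.83 to 2.37 and from 1.61 to 2.26.

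The 10 lowest called genes were, in order, Rgs2, Rhox5, Gstp1, Prrx1, Pitpna, Atp23, Rpl39l, Col8a1, Pttg1 and Col6a3. Rgs2, which speeds the GTPase of G protein alpha subunits, read -3.03, -3.07, -1.92 and -2.25 and averaged -2.57 ± 0.57 (limma adjusted p = 0.00129). The X-linked homeobox gene Rhox5 read -2.88, -2.82, -1.36 and -2.43, and only hybridization 3 lay above -2. Prrx1, a homeobox gene of limb and body mesenchyme, read -2.32, -2.19, -1.54 and -1.78 with a mean of -1.96 ± 0.36. In each of these genes the first pair was lower than the second.

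Gstp1, a cytosolic glutathione transferase, averaged -2.15 ± 0.84, with -2.84 in the first pair and -1.45 in the second (adjusted p of the difference 0.00765), and its call was lost without hybridization 2, where the mean was -1.94. The collagen genes Col8a1 and Col6a3 averaged -1.80 ± 0.50 and -1.70 ± 0.23, and the other tested probe of Col6a3 read -0.04 and was not called. Pttg1, which encodes securin, averaged -1.73 ± 0.22, Pitpna, a phosphatidylinositol carrier, -1.92 ± 0.38, and Atp23, a mitochondrial protease, -1.90 ± 0.50. Rpl39l, a paralog of the ribosomal gene Rpl39, averaged -1.89 ± 0.55. The probe sequences were not used here, so signal shared between near-identical paralogs cannot be told apart.

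**Figure D1:**
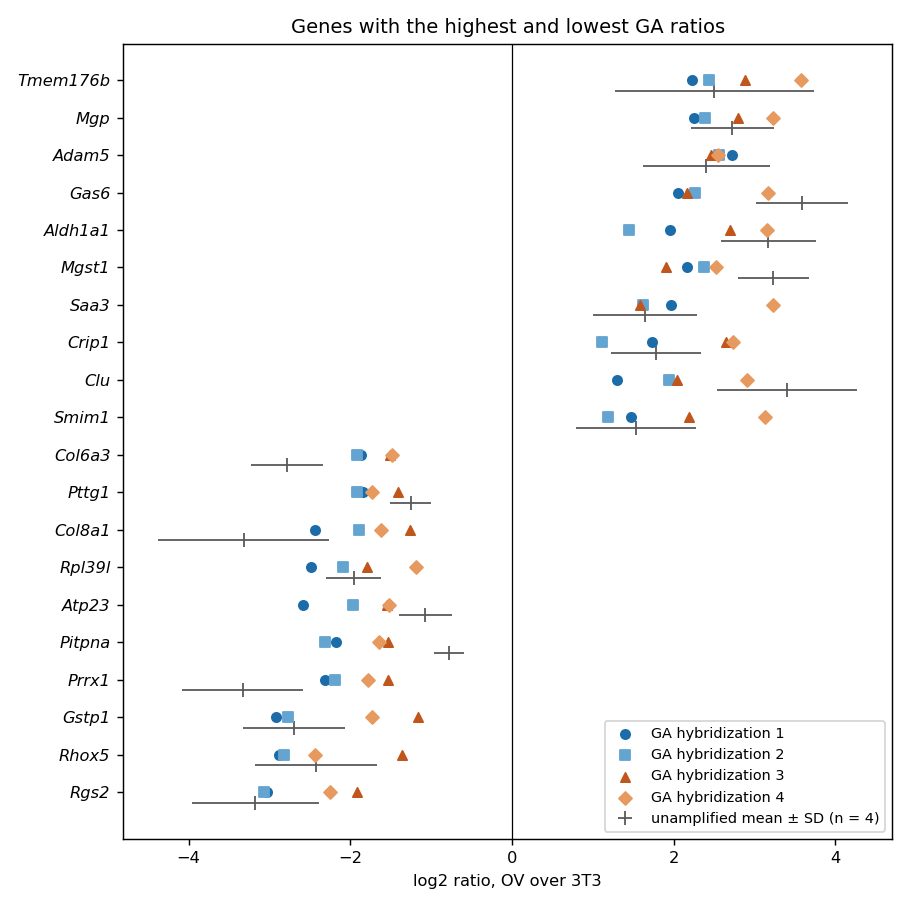
Log2 ratio of OV over 3T3 (x axis) for the 10 genes with the highest and the 10 with the lowest GA mean among those called, with 1 symbol per GA hybridization and, below each gene, the mean ± SD of the 4 unamplified arrays. All 4 GA arrays of every gene lie on 1 side of 0, and the second pair (orange) lies to the right of the first (blue) in most genes, as for Rgs2, where the first pair read -3.03 and -3.07 and the second -1.92 and -2.25.

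Genes of surface epithelium were higher in OV where they were called. List members named here and below outside the rule for named genes were picked on their values. Of the 21 tested probes of the ovarian surface epithelium and mesothelium list, 3 were called higher and 0 lower (4 higher on hybridizations 3 and 4 alone and 2 without hybridization 2), against 2.26% and 5.81% of all tested probes, and the median ratio was 0.21 against -0.0049 over all 6563 probes. A positive mean was found for 14 of the 21 probes, and Aldh1a1, described above, had the highest. Wt1, the zinc finger factor of mesothelium and gonad, read 1.30, 0.79, 0.72 and 1.76, a mean of 1.14 ± 0.48. The uroplakin gene Upk1b read 0.97, 1.32, 0.73 and 0.57, a mean of 0.90 ± 0.33. All 8 values were positive and well below the unamplified values, which averaged 3.65 ± 0.50 and 4.26 ± 0.33. The calls of both were lost with the dye-swap pairs as a random block, whose LOD was -0.94 and -0.15, and without hybridization 1, 2 or 3. Msln, which encodes mesothelin, had a mean of 0.84 and Bnc1, which encodes basonuclin, a mean of 0.70, and neither was called. Gata6, another factor of this epithelium, had a GA value on only 2 arrays.

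Of 15 tested keratin and epithelial junction probes, 2 were called higher and 0 lower, against 2.26% and 5.81% of all tested probes. The median was 0.25, and 12 of the 15 had a positive mean. Without hybridization 2 the higher count was 1. At an adjusted p under 0.05 in limma, 6 were higher and 2 lower. Krt8 and Krt19 encode keratins of simple epithelia. Krt8 read 1.77, 1.75, 1.46 and 2.43, a mean of 1.85 ± 0.41, and Krt19 read 1.61, 1.31, 0.65 and 1.54, a mean of 1.28 ± 0.44. Every value was positive, with hybridization 3 the lowest for both. Krt19 lost its call without hybridization 1 or 2, with means of 1.17 to 1.49 over the arrays left out in turn. The cadherin gene Cdh3 averaged 0.92 and was not called. Of the 46 probes of this list on the array, 6 had no GA value and 25 had 1 to 3, among them the simple-epithelium keratins Krt18, with 2, and Krt7, with 3.

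The called matrix and mesenchymal genes lay in both directions. Of 42 collagen and matrix probes, 2 were called higher, 4 lower and 36 not, with a median of 0.13, where 2.26% and 5.81% of all probes were called higher and lower. Beside Mgp, Dcn, which encodes the small proteoglycan decorin, was higher at 1.90, 1.77, 1.41 and 1.90, a mean of 1.75 ± 0.23 and an even level over the 4 arrays. Beside the collagens above, the lower calls were Nid1, a basement membrane linker, at -1.06 ± 0.37, and Fbln5, an elastic fibre protein, at -0.84. The call of Nid1 was lost with the random block and without hybridization 1, 3 or 4. The fibrillar collagen gene Col1a1 had a mean of 0.97 and the basement membrane gene Col4a1 1.36, uncalled.

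Of 24 mesenchymal regulators, Gas6 was called higher and Prrx1 and Ddr2 lower, and 21 were not called. The share called was 12.5%, against 8.06% of all tested probes (2.26% higher and 5.81% lower). Ddr2 encodes a receptor for fibrillar collagen and read -0.96, -1.01, -0.77 and -1.0, a mean of -0.93 ± 0.11. Of 22 contractile gene probes 1 was called (4.55%, below the share of all probes). It was for the actin-binding gene Tpm1, at 1.76, 0.85, 1.74 and 2.60. A positive mean was found for 19 of the 22, and the median was 0.18. Tpm1 lost its call without hybridization 1 or 3, where its mean was 1.73 and 1.74. Of 16 secreted antagonist and growth factor binding probes 1 was called (6.25%, also below that share). Bmp4, a bone morphogenetic protein, was called at 1.07 ± 0.38, and lost its call with the random block and without hybridization 1 or 3. The median of that list was 0.13 in the first pair and 0.72 in the second. The test of the difference between pairs was passed by 5 of its 16 probes and by 9.34% of all tested probes.

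The cell cycle genes called by the LOD rule were all lower in OV, as were 381 of all 529 calls. Of 32 mitosis and spindle probes, 10 were called lower and 0 higher, against 5.81% and 2.26% of all tested probes. A negative mean was found for 29, and the median was -0.52. At an adjusted p under 0.05 in limma the counts were 19 lower and 1 higher. With the random block 7 were called lower, without hybridization 2 the count was 5, and on hybridizations 3 and 4 alone it was 13. Pttg1 led them at -1.84, -1.92, -1.42 and -1.73. Ccna2, which encodes cyclin A2, read -2.27, -1.68, -1.61 and -1.15, a mean of -1.68 ± 0.46, and Stmn1, a microtubule destabilizer, averaged -1.14 ± 0.25. The other lower calls were Bub1 at -1.10, Racgap1 at -1.0, Ncapg at -0.96, Prc1 at -0.91, Nusap1 at -0.83, Mki67 at -0.78 and Aurka at -0.78, genes of the spindle checkpoint, cytokinesis, chromosome condensation, spindle bundling, the proliferation antigen and a centrosome kinase.

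Of 30 DNA replication probes, 4 were called lower and 0 higher (13.3%, against 8.06% of all tested probes), with a median of -0.26. A positive mean was found for 9 of the 30. At an adjusted p under 0.05 in limma the counts were 11 lower and 4 higher. Mcm4, of the replicative helicase, read -0.96, -0.82, -1.08 and -1.25, a mean of -1.02 ± 0.18. Dnmt1, the maintenance methyltransferase, averaged -0.89 ± 0.22, Gins1 -0.83 ± 0.15 and the cyclin gene Ccne1 -0.81. Dnmt1 lost its call without hybridization 2 or 3 and Gins1 without 1 or 3. The inhibitor of cyclin-dependent kinases Cdkn1a was lower too, at -1.27, -1.08, -0.93 and -1.19, a mean of -1.12 ± 0.15. It was the only call among 13 probes of cell cycle inhibitors and D cyclins (7.69%, near the 8.06% of all probes). At an adjusted p under 0.05 in limma, 5 of the 13 were lower and 2 higher.

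The called genes of lipid synthesis were lower in OV too. Of 19 sterol and fatty acid probes, 4 were called lower and 0 higher, against 5.81% and 2.26% of all tested probes. The median was -0.41, and 4 of the 19 had a positive mean. The count of lower calls was 4 with the random block and 2 without hybridization 2. Mvd, of the mevalonate pathway, read -1.27, -0.92, -0.80 and -1.36, a mean of -1.09 ± 0.27. Hsd17b7, of cholesterol synthesis, averaged -1.05 ± 0.25, the fatty acid elongase gene Elovl6 -1.05 ± 0.38 and the sterol sensor partner Insig1 -0.74. Elovl6 lost its call without hybridization 1, 2 or 3. Genes on the mevalonate path that were not called included Idi1 at -0.36 and Fdft1 at -0.42, and Cyp51, Fdps, Mvk and Sqle had fewer than 4 values.

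Each of the housekeeping groups had a median a little below 0, and the share called differed between them, against 8.06% of all probes (5.81% lower). Respiratory chain probes had a median of -0.31, with 5 of 35 called (14.3%), all lower, namely Cox7a2 at -0.97 ± 0.15, Ndufa4 at -0.90 ± 0.29, Atp5b at -0.87 ± 0.11, Ndufb3 at -0.78 and Ndufa10 at -0.64, and 3 with the random block. Ndufa4 lost its call without hybridization 2, 3 or 4 and Atp5b without 3. Ribosomal protein probes had a median of -0.20, and of 57 only Rps3a1 and Rps6 were called, both lost with the random block and whichever single array was left out. Glycolytic and central carbon probes had a median of -0.08, with Pgk1 at -1.04 ± 0.27 and Pfkl at -0.81 ± 0.15 the only 2 calls of 28, Pgk1 lost without hybridization 3 and Pfkl without 2 or 3. Of 37 translation factor probes 10.8% were called, 1 higher and 3 lower. The higher call was Eef1a1 at 0.91 ± 0.28, whose other probe averaged 0.60 and was not called. The lower calls were Eif6 at -0.90 ± 0.11, Eif3j1 at -0.85 ± 0.30 and Eif4b at -0.79 ± 0.22. Of the 4 only Eif6 was called with the random block. Of 26 proteasome probes 1 was called (3.85%), Psme1, an activator subunit, at -0.75 ± 0.21. It was lost with the random block and with each array left out in turn. In unamplified cDNA Psme1 averaged 0.31 ± 0.05, a difference of -1.06 ± 0.13 (SE) (limma adjusted p = 0.000929). Ndufa4 and Rps6 averaged 0.08 ± 0.08 and 0.08 ± 0.32 there, and Eif6 -0.19 ± 0.06. Cox7a2, Pfkl, Eif4b, Atp5b, Eif3j1 and Rps3a1 averaged -0.30 to -0.84 there, Pgk1 -1.86 and Eef1a1 0.55.

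Chaperone and detoxification genes split by gene. The endoplasmic reticulum chaperone gene Calr read 1.36 on hybridization 1 and 2.07 and 2.58 on the second pair, a mean of 1.87 ± 0.56 over all 4, and the small heat shock gene Hspb1 averaged 1.70 ± 0.70. The chaperonin genes Cct7 and Hspd1 were lower, at -1.43 ± 0.25 and -0.81 ± 0.16. For Cct3 the called probe gave -0.79 ± 0.18 and another probe, not called, 0.18. The chaperonin gene Cct5 went the other way, at 0.82 ± 0.81, and was not called. Of 31 probes of this list 3 were called higher, the third being the co-chaperone gene Bag3 at 0.64 ± 0.11, and 3 lower. The share called was 19.4%, against 8.06% of all tested probes (2.26% higher and 5.81% lower). Bag3 lost its call with the random block and whichever single array was left out, Hspb1 without hybridization 1 or 3, Hspd1 without 2 or 3 and Cct3 without 2, 3 or 4.

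Of 29 detoxification, selenium and iron probes, 5 were called higher and 5 lower, so 34.5% were called, against 8.06% of all probes. Without hybridization 2 these counts were 4 and 2. Beside Mgst1, the iron carrier gene Trf read 1.81, 1.91, 1.35 and 2.04, a mean of 1.78 ± 0.30. The other probe of Trf averaged 0.95 and was not called. The heme oxygenase gene Hmox1 averaged 1.70 ± 0.48, the selenium carrier Selenop 1.59 and Ugt1a6a 0.78. The thioredoxin pathway genes were lower, Txn1 at -1.29 ± 0.44 and Txnrd1 at -1.12 ± 0.26 (Txn1 not without hybridization 2), as were Gpx3 at -0.93 and the glutathione synthesis gene Gclm at -0.84.

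The calls among immune genes came from few genes. Of 19 chemokine and inflammatory probes 3 were called (15.8%, against 8.06% of all probes), both higher calls were Saa3 probes, and the eosinophil chemokine gene Ccl11 was lower at -0.91, -1.07, -1.20 and -1.02, a mean of -1.05 ± 0.12. Clu was the single call of 9 complement probes (11.1%). The interferon-induced Ifitm3 was the single call of 13 interferon and antigen presentation probes, at -0.91 ± 0.32, lost with the random block and without hybridization 1, 2 or 4. Of 17 imprinted gene probes only Dcn was called.

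Markers of other cell types were checked against the labelled lines. Of 4 tested leukocyte probes 2 were called, both higher, where 8.06% of all probes were called. The signalling gene Vav1 read 1.23, 1.82, 1.16 and 1.5, a mean of 1.43 ± 0.30, and Cd68 averaged 0.97 ± 0.36. In unamplified cDNA Vav1 averaged 2.10 ± 0.22 and was called, while Cd68 averaged 0.18 ± 0.25 and was not. For Cd68 the GA ratio was higher by 0.80 ± 0.19 (SE) (limma adjusted p = 0.0188, 0.0559 with the random block). Cd68 lost its call with the random block and without hybridization 1, 3 or 4, and the medians of the 4 probes lay between 0.40 and 0.73 on the 4 arrays. Of 27 leukocyte probes on the array, 3 had no GA value and 20 had 1 to 3, the pan-leukocyte gene Ptprc among them with 1. None of 5 endothelial probes was called, and 1 of 6 gonadal and germ cell probes was, the Sertoli and granulosa hormone gene Amh at 0.86 ± 0.22. It lost its call without hybridization 1, 2 or 4. Whether other cells contributed was not tested. The tumour suppressor gene Cdkn2a, known to be lost in many 3T3 lines, had 1.60, 2.01 and 2.63 on hybridizations 1, 3 and 4 and no value on hybridization 2. Xist, the RNA of the inactive X chromosome, had 1.55, 2.26 and 2.83 on hybridizations 1 to 3 and none on hybridization 4. The Y-linked gene Eif2s3y averaged -0.87 ± 0.46 and was not called. Other Y-linked genes lacked values on some or all GA arrays. Kdm5d read 0.16, 0.16 and 0.02 and Usp9y -0.07, 0.30 and 0.48 on hybridizations 1 to 3, and Uty had no GA value. In unamplified cDNA Eif2s3y was called lower at -0.69 ± 0.24 and Usp9y higher at 0.62 ± 0.20, so these genes gave no single direction.

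**Figure D2:**
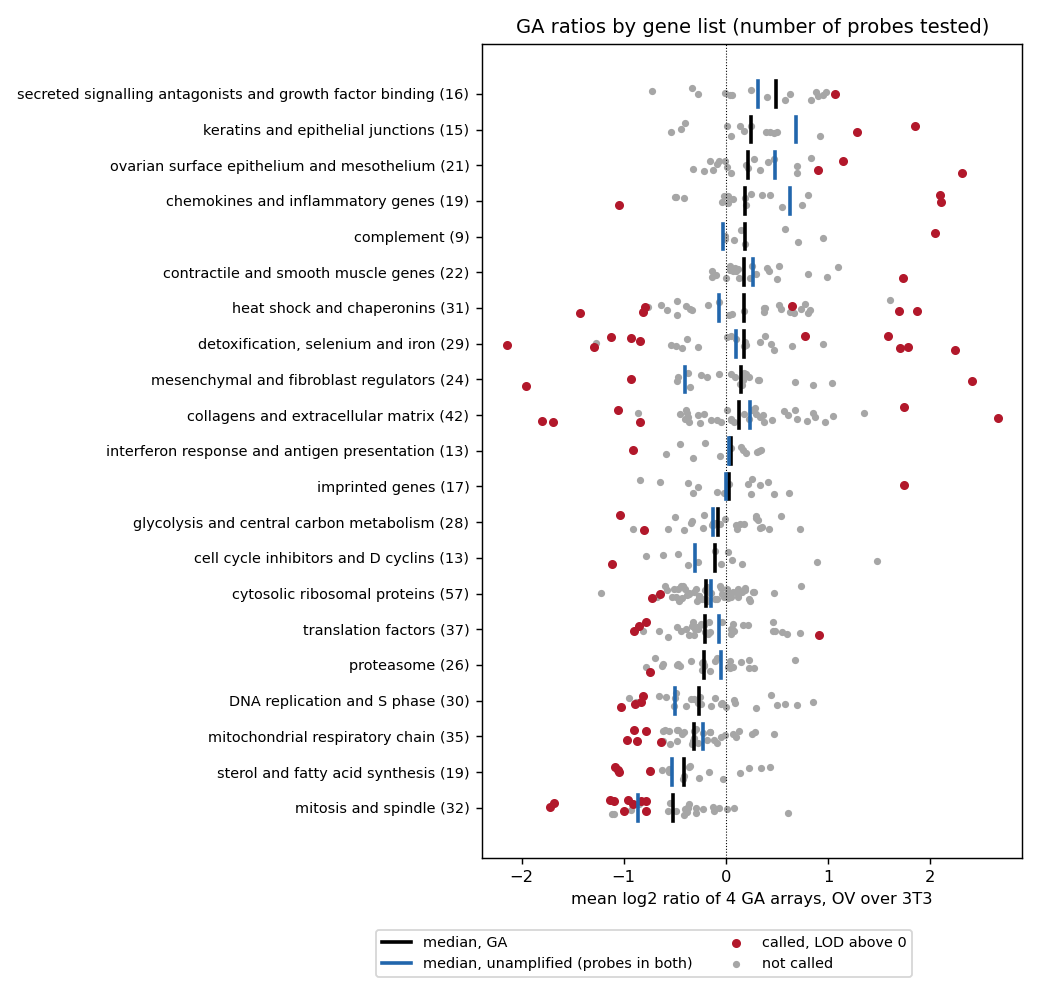
Mean log2 ratio of OV over 3T3 over the 4 GA arrays (x axis) for each tested probe of the gene lists with at least 9 tested probes, red where called. Black and blue bars are the medians of GA and of unamplified cDNA, and mitosis and sterol probes lie lowest with GA medians of -0.52 and -0.41.

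Unamplified cDNA of the same lines served as the reference for 6177 probes with all 8 values. The GA and unamplified means correlated at r = 0.60 across these probes, which share the RNA sources, and the slope of GA on unamplified ratios was 0.51. Of the 6177 probes, 1174 (19.0%) were called in unamplified cDNA, 611 higher (9.89%) and 563 lower (9.11%). Of the 510 GA calls among the 6177 probes, 248 were also called in unamplified cDNA with the same sign, 48.6% of the GA calls and 21.1% of the unamplified calls. Higher calls were shared for 83 of 144 and lower calls for 165 of 366. Seen from the unamplified side, GA called 29.3% of the lower probes and 13.6% of the higher ones. Of the 510 GA calls, 109 had an unamplified mean within 0.25 of 0, as did 51.0% of all 6177 probes.

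**Figure D3:**
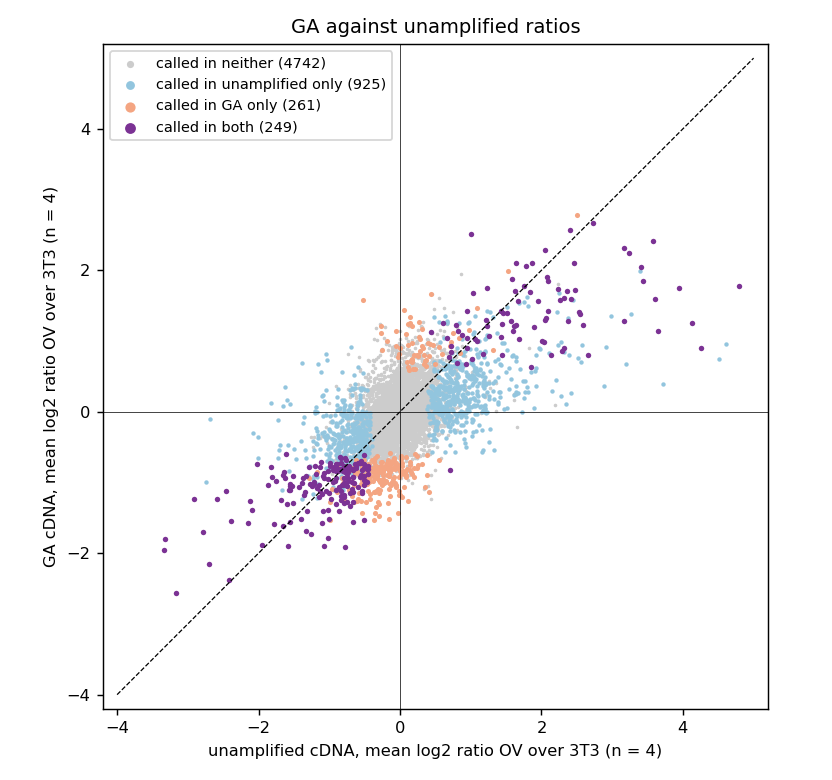
Mean log2 ratio of OV over 3T3 in GA cDNA (y axis, n = 4) against unamplified cDNA (x axis, n = 4) for 6177 probes, coloured by the method in which an LOD above 0 called them. The dashed line marks equal ratios, and probes called in both methods number 249, 1 of which has opposite signs.

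Where unamplified ratios were large, GA ratios were nearer 0 in both directions. The 18 probes with an unamplified ratio over 3 had an unamplified median of 3.59 and a GA median of 1.485, and in 0 of them was the GA ratio the larger. For the 48 probes between 2 and 3 the medians were 2.32 and 1.29, and for the 19 probes under -2 they were -2.46 and -1.26. Between 1 and 2 the medians were 1.22 and 0.50, and 16.7% of the 210 probes were called with that sign in GA. Between -2 and -1 they were -1.21 and -0.78, and 43.6% of 140 probes were called. The median GA SD was 0.26 between -2 and -1 and 0.34 between 1 and 2. No difference between the directions was tested. The bins were set on the unamplified mean, which carries its own error, and the part of this in the smaller GA ratios was not tested.

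**Figure D4:**
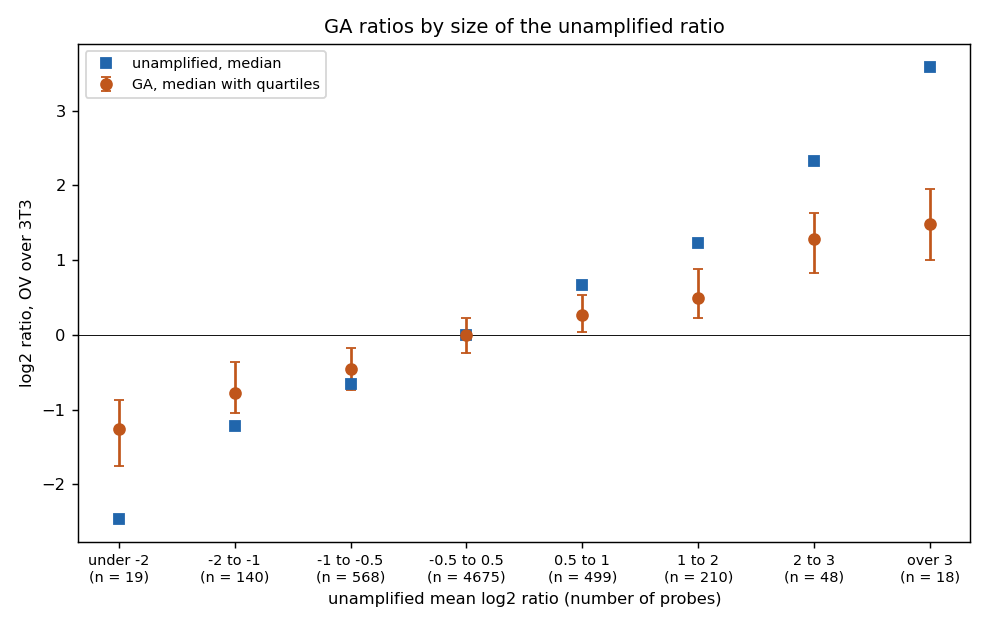
Median unamplified ratio (blue squares) and median GA ratio with quartiles (orange) for probes grouped by their unamplified mean log2 ratio of OV over 3T3, with the number of probes under each group. GA medians lie nearer 0 than unamplified medians in each group outside -0.5 to 0.5, for example 1.29 against 2.32 for the 48 probes between 2 and 3.

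Probes with large unamplified ratios more often had a value on all GA arrays, with no test of this made. Of probes measured on all 4 unamplified arrays, 46.3% of those with an unamplified ratio between -0.5 and 0.5 had 4 GA values, compared with 67.9% of the 28 under -2 and 72.0% of the 25 over 3.

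The difference between the methods was tested directly. Of 6177 probes, 1276 (20.7%) differed between GA and unamplified cDNA at an adjusted p under 0.05 in limma, 447 with a higher (7.24%) and 829 with a lower (13.4%) log2 ratio in GA. With the dye-swap pairs of each method as a random block 739 differed (12.0%). Among called probes whose GA and unamplified arrays did not overlap, the 5 most negative differences were in genes high in OV. The chemokine gene Cxcl12 read 0.28, 0.62, 0.82 and 1.26 in GA and 4.55, 4.55, 4.19 and 4.77 in unamplified cDNA, a difference of -3.77 ± 0.21 (SE) (limma adjusted p = 2.71e-05). Upk1b differed by -3.36 ± 0.20 (SE), Cxadr, which encodes a junctional virus receptor, by -3.33 ± 0.25 (SE), Trf by -3.01 ± 0.18 (SE) and the sodium pump subunit gene Atp1b1 by -2.88 ± 0.21 (SE). GA and unamplified arrays were apart, in either direction, for 25.9% of all probes. Cxcl12 and Cxadr were uncalled in GA.

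In the other direction, the water channel gene Aqp1 read -0.28, 0.14, -0.13 and -0.15 in GA and -3.78, -2.13, -2.37 and -2.46 in unamplified cDNA, a difference of 2.58 ± 0.31 (SE). The primase gene Prim1 read -0.31, -0.31, 1.44 and 1.97, so the pairs had opposite signs, while its unamplified mean was -1.38 ± 0.30. The kinase gene Sgk1, the X-linked gene Ott and the chaperonin gene Cct5 differed by 1.98 ± 0.23 (SE), 1.95 ± 0.29 (SE) and 1.87 ± 0.33 (SE). Snap23, a membrane fusion gene, was the only named gene called in both methods with opposite signs, at -0.96, -1.05, -0.74 and -0.52 in GA and 0.92, 0.71, 0.79 and 0.43 in unamplified cDNA. Its GA call was lost without hybridization 1, 2 or 3, with means of -0.92 to -0.74.

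Some GA calls had unamplified ratios near 0. Glul, glutamine synthetase, averaged -1.51 ± 0.46 in GA and -0.15 ± 0.29 in unamplified cDNA. Pdhb, of the pyruvate dehydrogenase complex, read -1.10, -0.96, -1.70 and -1.98 in GA with an unamplified mean of -0.03 ± 0.09, and Golt1b, of Golgi transport, read 1.43, 0.98, 1.40 and 1.93 with 0.06 ± 0.13. Pdhb lost its call without hybridization 3 and Bcl9l without hybridization 1. Bcl9l and Gpaa1 averaged 1.34 ± 0.44 and -1.29 ± 0.25, with unamplified means of 0.14 ± 0.18 and -0.17 ± 0.12. The reverse held for Aqp1 and Ott and for Hs6st2, Rec8 and Ccl2, whose GA means were 0.11 ± 0.09, 0.06 ± 0.09 and 0.19 ± 0.36 and unamplified means 2.34 ± 0.62, 1.90 ± 0.26 and 1.75 ± 0.35. No GA call lacked a value on every unamplified array, and 19 had values on only some of them.

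In unamplified cDNA 9.89% of the 6177 probes measured in both methods were called higher and 9.11% lower. By list, the surface epithelium probes had 9 higher calls and 1 lower in unamplified cDNA, and 3 higher in GA. Of the 21, 8 had a lower and 2 a higher ratio in GA, where 13.4% and 7.24% of all probes did. Keratin and junction probes had 8 higher calls in unamplified cDNA and 2 in GA, and 8 of 15 were lower in GA. The chemokine list had 11 higher calls in unamplified cDNA against 2, and 9 of 19 were lower and 2 higher in GA. For mesenchymal regulators the GA ratio was the higher in 8 of 23 and the lower in 2, among them Thy1, at 0.17 in GA and -1.60 in unamplified cDNA. Mitosis probes had 20 lower calls in unamplified cDNA and 10 in GA, 8 of them shared. Of the 32, 5 differed between the methods, all with a higher ratio in GA, while 20.7% of all probes differed in either direction. For sterol genes the counts were 10 and 4, all 4 shared. DNA replication probes had 8 lower calls in unamplified cDNA and 4 in GA, 0 of them shared. Of these GA calls, Mcm4, Dnmt1 and Gins1 were lower in unamplified cDNA too, at -0.55, -0.51 and -0.71. Their LODs there were -0.02, -0.61 and -0.19, a little under the cut of 0. Respiratory chain probes had 7 and 5 lower calls, 2 of them shared. The respiratory chain median was -0.32 in GA and -0.22 in unamplified cDNA over 34 probes.

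The gap between the dye-swap pairs, hybridizations 1 and 2 against 3 and 4, was itself tested. Of 6563 probes, 613 (9.34%) differed at an adjusted p under 0.05 in limma, 420 of them higher in the second pair. Of the 613, 15 were among the 529 calls. The call rule counts a gap between the pairs as spread between arrays, so a low overlap was built in. It does not show that the calls were free of the gap. The second pair alone had 107 probes with a mean above 1 where the first was within 0.25 of 0, and the reverse held for 12. The genes that follow were picked on their values. The ubiquitin-conjugating variant gene Ube2v1 read -0.40, -0.94, 2.45 and 2.67, and Parp16 read -0.47, -0.65, 1.98 and 2.69. In both, the first pair lay below 0 and the second far above it. Dnajc3, a co-chaperone of the endoplasmic reticulum, averaged 0.25 in the first pair and 2.97 in the second. In the other direction, Ciao2b averaged 2.01 and 0.47 and the lysosomal reductase gene Ifi30 0.82 and -0.64. The unamplified mean ratios of Ube2v1, Parp16 and Ifi30 were 0.02, -0.07 and 0.19.

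2 further arrays compared GA cDNA of 2 parallel 10 ng OV reactions with each other, with no 3T3 RNA. Turned to replica 1 over replica 2 they correlated at r = -0.27 over 5714 probes, so they are given one by one. The log2 ratios of OV replica hybridization 2 correlated with the difference between the pairs at r = 0.78 over 6243 probes and at 0.94 over the 602 measured probes called for that difference, with the same sign in 592. For OV replica hybridization 1 the values were -0.05 over 5849 probes and -0.21 over 564, with the same sign in 291. Ube2v1, for example, was at -2.76 on OV replica hybridization 2 and 0.09 on hybridization 1. These correlations are a description over probes. No array enters both measures, but whether the same amplified OV cDNA was used is not stated, the descriptions of the replica arrays give the input as 10 ug, and that of OV replica hybridization 2 speaks of RNA of both lines although its sources name OV in each channel. Its correlation with the OV over 3T3 means was 0.09 in the first pair and -0.59 in the second, against 0.28 and 0.27 for OV replica hybridization 1.

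**Figure D5:**
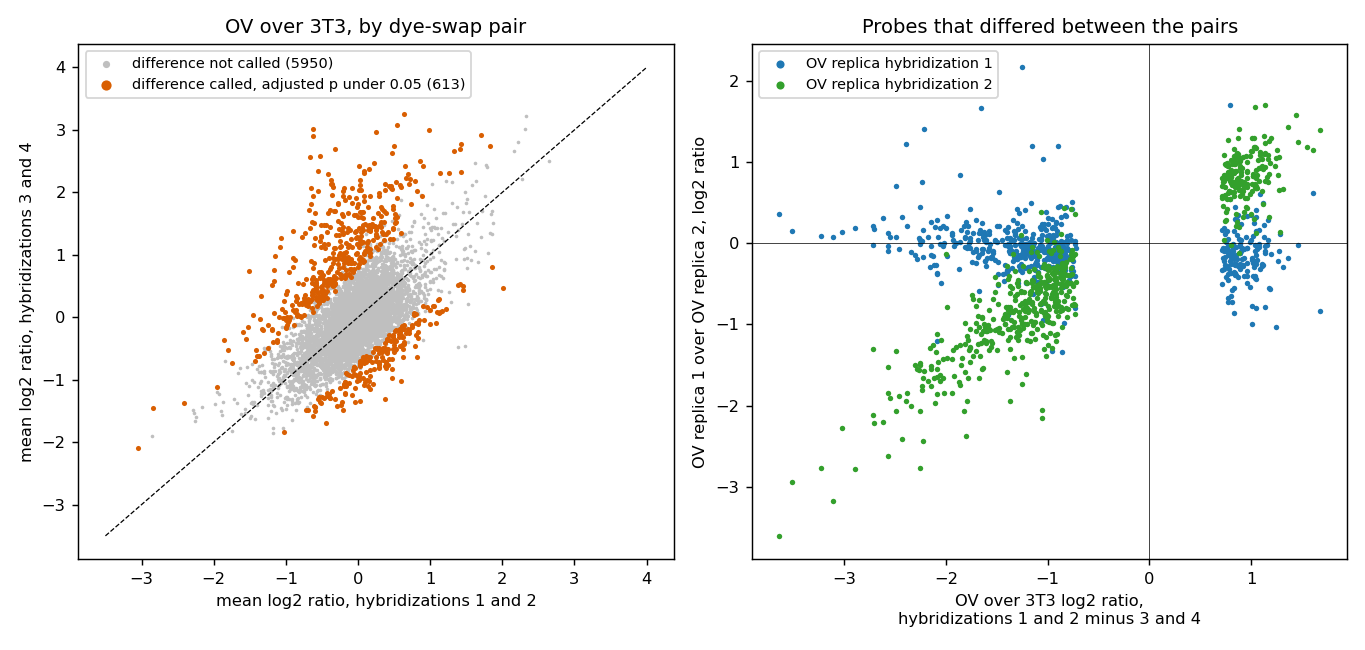
Left, mean log2 ratio of OV over 3T3 for hybridizations 3 and 4 against hybridizations 1 and 2, with the 613 probes that differed between the pairs in orange. Right, for those probes, the log2 ratio of OV replica 1 over replica 2 on each replica array against the difference between the pairs: hybridization 2 (green) follows the difference (r = 0.94) and hybridization 1 (blue) does not (r = -0.21).

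The replica arrays also give single-array ratios of an OV against OV comparison. Over the tested probes, 1.91% of values on OV replica hybridization 1 and 4.21% on hybridization 2 exceeded 1 in size, against 4.92% and 4.71% of OV over 3T3 means on the same probes. A single array is set here against a mean of 4, so these shares are not like for like. Of the called probes with a value there, 8 of 447 and 15 of 468 had a replica ratio at least as large as their OV over 3T3 mean. The calls had been selected on those means, the smallest 0.5875 in size, so low counts were built in and are no support for the calls. On the array that set 1 GA cDNA against itself, 2 SD of the log2 ratio was 0.28 over 6387 probes and 0 probes exceeded 1.

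The width of the log2 ratios of single arrays was compared between GA and unamplified cDNA. Over the 6177 shared probes, 2 SD of the log2 ratio averaged 1.15 ± 0.20 on the GA arrays and 1.21 ± 0.15 on the unamplified arrays (SD, n = 4 each, p = 0.686 in a two-sided exact permutation test whose smallest possible p is 0.0286). The direction depended on the measure, as doubled scaled median absolute deviations averaged 0.929 ± 0.132 and 0.789 ± 0.135 (SD, n = 4 each, exact permutation p = 0.257), and 2 SD over all probes of each array 1.04 ± 0.22 and 1.01 ± 0.11 (exact permutation p = 0.857). Hybridization 4 was the widest GA array, and over the 6563 probes it held 127 ratios above 2, compared with 7, 11 and 31 on hybridizations 1 to 3. A dye term called 0 of 6563 probes at an adjusted p under 0.05 in limma, while 78 had an unadjusted p under 0.05. That is fewer than chance alone would give. The fit held no term for the dye-swap pairs, so the gap between them counted as spread. This test could therefore miss a dye effect and does not show that there was none.

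GA was also set against SMART, a template-switching PCR method, at the same 10 ng input. Of 5344 probes with all 8 values, 364 (6.81%) differed at an adjusted p under 0.05 in limma, 91 higher (1.70%) and 273 lower (5.11%) in GA. Of 435 GA calls measured on all SMART arrays, 92 were called there with the same sign, where 3.33% of 9029 probes were called. Mitosis probes had a median of -0.52 in GA and -0.29 in SMART over 26 probes, and 4 were lower in GA. The SMART arrays correlated with each other at -0.09 to 0.73, and without single SMART arrays the count of differences ran from 97 to 383.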

How the data were processed

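Each array held cDNA of 2 samples in Cy3 and Cy5. The deposited values are log2 ratios per spot, which the authors made from background-subtracted GenePix intensities by print-tip lowess within each array (limma, per the submitters' processing notes, no version given). No scaling between arrays is stated. The array medians were near 0 and the dye direction was taken from the labels. Of 21997 probes, 231 controls were left out. Of the rest, 16632 had 1 gene symbol, 139 several and 4995 none in the platform annotation, and 15952 Entrez entries matched RefSeq, which changed 0 symbols. All 56 columns were mapped.

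Log2 ratios turned to OV over 3T3 were fitted with limma 3.58.1 in R 4.3.3 (lmFit and eBayes with a prior proportion of 0.01), on the probes measured on every array compared. A probe was called at an LOD above 0, the rule of the methods. Differences between methods, between dye-swap pairs and between dyes were called at a Benjamini-Hochberg adjusted p under 0.05. Random blocks used duplicateCorrelation. Named genes were the 10 highest and 10 lowest calls, up to 3 calls in each direction per list (or the largest mean where none was called), the 5 largest differences from unamplified cDNA each way among called probes whose arrays did not overlap, calls of opposite sign, the 5 largest calls of each method near 0 (within 0.25) in the other, and Cdkn2a, Xist and Y-linked genes. Where a gene had several probes, the one with the highest LOD was named. The arrays, the rule and the gene lists were chosen with earlier results of these data known. The fits were tested on simulated data. Alternatives were other call rules, filters, scalings, dye and block terms, and leaving out each array. Arrays give no counting depth, and their number limits the precision.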

Additional observations from a re-analysis of the deposited data

Results flagged for a closer look

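Values were checked for a single array far from the other 3 of its group, in 186 groups of 4 arrays. Chance flags about 1 in 20 groups, and 7 were flagged, 3 of them among the GA arrays. On the GA arrays, Ifitm3, an interferon-induced membrane gene, was highest on hybridization 3 at a log2 ratio of -0.442 of OV over 3T3. The ribosomal gene Rps6 was highest on hybridization 1 at -0.429, and the kinase gene Sgk1 lowest on hybridization 3 at 0.00042. On the unamplified arrays, Wt1 was highest on array 1 at 4.38, Hsd17b7 highest on array 2 at -0.754 and Rps3a1 lowest on array 3 at -1.21. The width of array 2, as 2 SD of its log2 ratios over the 12866 probes with a value on all 4 unamplified arrays, was the lowest of these at 0.861.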

How the results depend on the processing

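The count of 529 calls became 1796 at an adjusted p under 0.05, 1077 with a prior proportion of 0.05, 302 with a dye term, and 252 to 367 with 1 array left out. Of settings chosen after seeing the data, the pair block at an adjusted p under 0.05 gave 1147, hybridizations 3 and 4 alone 1200, and the pair block on the difference from unamplified cDNA 739. Higher calls were 27.98% of all at the main rule and 49.5% on hybridizations 3 and 4 alone. The hybridization numbers did not pair GA with unamplified arrays, since the deviations of same-numbered arrays correlated at -0.135 to 0.0215, and with the number as a replicate block 962 probes differed between GA and unamplified cDNA and 237 between GA and SMART. The count against unamplified cDNA was 599 to 1335 with 1 array left out. Against SMART it was 112 on a common array scale and 97 to 383 with 1 array left out. The share of GA calls shared with unamplified cDNA was 62.4% at an adjusted p, 54.0% with the pair block and 55.8 to 62.2% with 1 GA array left out. The difference in array width, GA minus unamplified, was -0.06, but 0.139 by median absolute deviation (p = 0.257) and 0.0341 over all probes of each array (p = 0.857), both two-sided exact permutation tests. The correlation with unamplified means ran from 0.55 to 0.63 with 1 GA array left out. Of 73 named genes called in GA, 38 kept their call in each setting that left out 1 array and with the pair block. Of 50 list counts (25 lists in each direction), 13 moved by over 1.5 times without hybridization 2, 27 on hybridizations 3 and 4 alone and 9 with the pair block, settings chosen after seeing the data. The causes were not tested. Probes with fewer than 4 GA values were not tested here, and the number of arrays limits the precision.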
